A study of Mus musculus with 6 samples.

Results

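The Id genes Id1, Id2, Id3 and Id4, the inhibitory Smad genes Smad6 and Smad7, the Smad corepressor gene Skil and the membrane protein gene Tmeff1 were followed across 3 populations of mouse hair follicle cells. The 8 genes were taken by their symbol in the platform annotation, which named them on 15 of the 45037 probe sets that are no array controls. As genes they were 8 of 18193, each tested through its probe set with the highest mean over all arrays. In RefSeq (GRCm38.p6) Id1 lies at chr2:152736251-152737410, Id2 at chr12:25093799-25096092, Id3 at chr4:136143822-136145392 and Id4 at chr13:48261116-48266028. Smad6 lies at chr9:63953076-64022085, Skil at chr3:31095058-31122923 and Tmeff1 at chr4:48585071-48663132. The cells came from back skin of untreated female CD-1 mice and were sorted by flow cytometry, and each population was measured on 2 Affymetrix expression arrays. Quiescent hair follicle stem cells (qHF-SC) were taken at postnatal days 52 to 60 by integrin α6 and CD34. The activated stem cells (aHF-SC) came from mice at postnatal days 28 to 30 by GFP, integrin α6 and CD34. Transient-amplifying matrix cells (HF-TAC), the dividing progeny at the follicle base, were taken at the same age as aHF-SC by GFP, integrin α6 and ephrin-B1. The labels do not say what carries the GFP, on which side of a marker a gate lay, or whether replicates came from separate animals, so p-values measure only the spread between these arrays. Because qHF-SC differ from both other groups in age and gate as well as in state, these cannot be told apart.

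Bone morphogenetic proteins (BMPs) signal through Smads that include Smad1 and Smad5, and TGF-beta through Smad2 and Smad3. In the follicle BMP signals are known for holding stem cells in quiescence, while TGF-beta signals counter them at the onset of growth. Id genes are direct targets of BMP Smads; their proteins carry a helix-loop-helix domain without a DNA-binding region and tie up E proteins. Smad6 and Smad7 are feedback inhibitors that block receptors and Smad complexes, Skil encodes SnoN, which represses Smad-driven transcription, and Tmeff1 encodes a transmembrane protein with follistatin-like domains that is known as a TGF-beta target in hair follicle stem cells and dampens BMP signalling there.

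Values are probe set intensities on a linear scale as the authors normalised them, with an array median between 22.8 and 24.0, and tests were made with limma on the log2 scale over all 18193 genes. Replicate arrays correlated across genes at r of 0.9885 to 0.9915, where genes are not independent replicates. Of 11 bulge stem cell markers, which include the gate genes Cd34 and Itga6, 11 were lower in HF-TAC than in aHF-SC, and 7 of 9 matrix markers were higher. Between qHF-SC and aHF-SC 2 of the 11 bulge markers (Cd34 and Postn) were lower in aHF-SC and 9 did not pass, so these markers separate HF-TAC from both stem cell groups more than the stem cell groups from each other. In these bulk samples fewer cells of a type and less RNA per cell cannot be told apart. The intensity of 1 probe set cannot be set against that of another, so levels are compared between groups only.

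**Figure D1:**
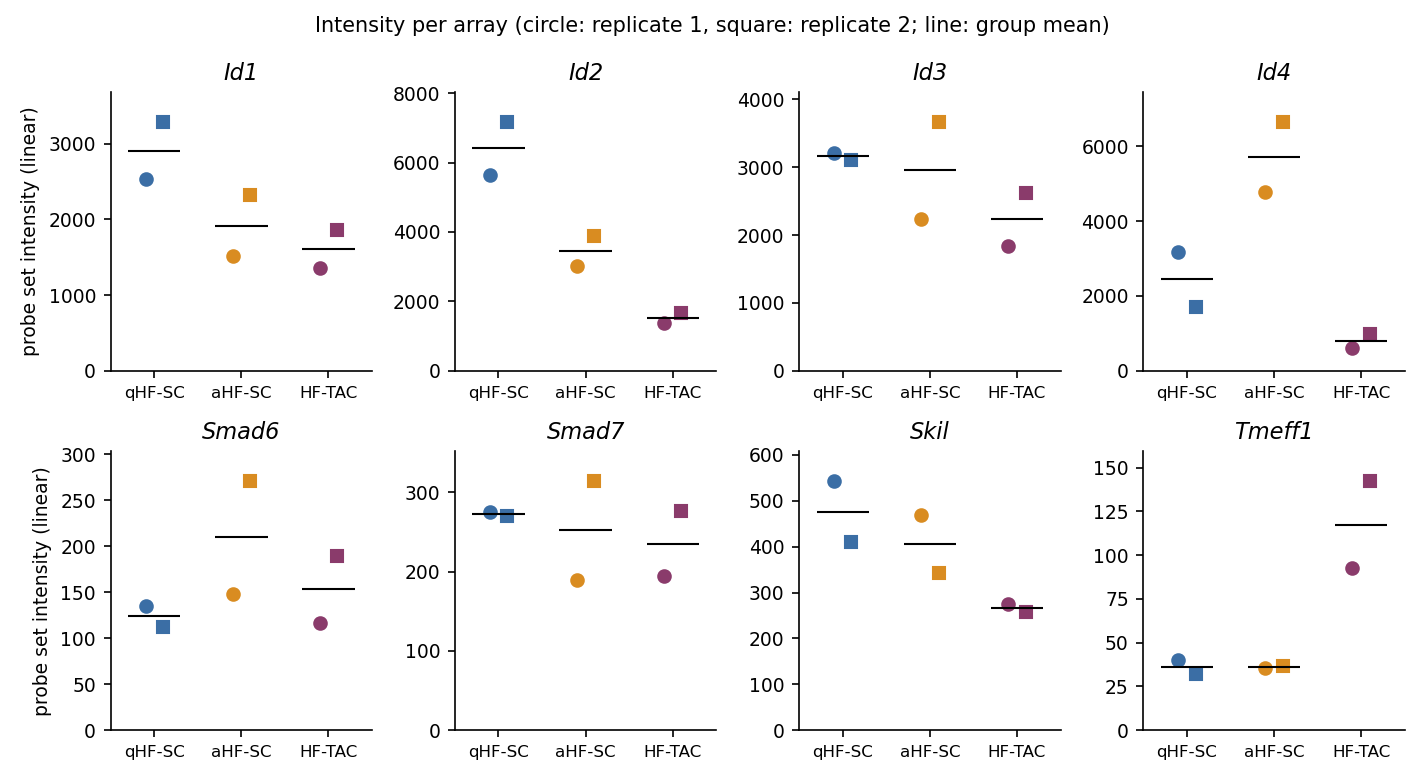
Probe set intensity (linear axis from 0) of each of the 8 genes on the 6 arrays, by cell group; circles are replicate 1, squares replicate 2, and lines group means. Id2 steps down from qHF-SC to HF-TAC, Id4 is highest in aHF-SC (4777 and 6647), and Tmeff1 is high only in the HF-TAC arrays (92.4 and 142).

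Id2 fell at each step from quiescent stem cells to matrix cells. Its intensity was 5651 and 7171 in the qHF-SC arrays, 3016 and 3881 in the aHF-SC arrays and 1383 and 1673 in the HF-TAC arrays. The 3 groups did not overlap, and the order was the same between any pair of arrays from different groups. Group means were 6411 ± 1074, 3448 ± 612 and 1528 ± 205 (SD, n = 2). Id2 was 4.19-fold lower in HF-TAC than in qHF-SC (log2 difference -2.07 ± 0.21 SE, limma adjusted p = 0.000486) and 2.25-fold lower than in aHF-SC (-1.17 ± 0.21, adjusted p = 0.00835). The step from qHF-SC to aHF-SC was 1.86-fold (-0.90 ± 0.21) and lay at the threshold, with an adjusted p of 0.0491. That call ended whenever 1 of its own arrays was dropped (for the qHF-SC arrays the adjusted p became 0.0868 and 0.281, for those of aHF-SC 0.209 and 0.0817, each time in the order of replicates 1 and 2) and with 16 added to each intensity (0.0797). The call between HF-TAC and aHF-SC ended without aHF-SC replicate 2 (adjusted p = 0.0567).

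The 3 Id2 probe sets did not give the same steps. A second probe set followed the first, with means of 5555, 2565 and 1146. The remaining probe set, designed on the cDNA AK013239, was much dimmer, at 216 and 301 in qHF-SC, 78.2 and 78.0 in aHF-SC, and 62.9 and 84.5 in HF-TAC. On it the whole fall lay between qHF-SC and aHF-SC (-1.71 ± 0.21 SE, limma adjusted p = 0.00797 over all probe sets), and aHF-SC and HF-TAC overlapped (-0.10 ± 0.21, adjusted p = 0.888). Both bright Id2 probe sets carry the suffix _a_at. When probe sets with the suffix _s_at, _x_at or _a_at were left out, this dim one stood for the gene. The Id2 difference between HF-TAC and aHF-SC then did not pass (-0.10, limma adjusted p = 0.865).

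Id4 was highest in activated stem cells and lowest in matrix cells. Its intensity was 3174 and 1706 in the qHF-SC arrays, 4777 and 6647 in the aHF-SC arrays and 606 and 996 in the HF-TAC arrays. The groups did not overlap, although the qHF-SC replicates lay far apart. Means were 2440.3 ± 1038, 5712 ± 1322 and 801 ± 276 (SD, n = 2). Id4 was 7.25-fold lower in HF-TAC than in aHF-SC (log2 difference -2.86 ± 0.35 SE, limma adjusted p = 0.0022), which was the largest difference of any of the 8 genes in the 3 comparisons. It was 2.99-fold lower in HF-TAC than in qHF-SC (-1.58 ± 0.35, adjusted p = 0.015). That call was lost with replicate 1 of qHF-SC dropped (-1.13, adjusted p = 0.0811) and also with replicate 1 of HF-TAC dropped (-1.22, adjusted p = 0.0686). The higher level in aHF-SC than in qHF-SC, 1.28 ± 0.35 with a 95% interval from 0.44 to 2.11, missed the threshold (adjusted p = 0.0874). It passed with arrays scaled to their 75th percentile (adjusted p = 0.0376).

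All 3 Id4 probe sets, designed on the same accession, gave the fall into HF-TAC. Their log2 differences from aHF-SC were -2.86, -2.81 and -2.67, with limma adjusted p over all probe sets of 0.00223, 0.00103 and 0.00256. Between aHF-SC and qHF-SC each was higher without overlap of the arrays, by 1.28, 0.67 and 1.09, and none passed (adjusted p = 0.0875, 0.251 and 0.127).

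Id1 and Id3 moved less. Id1 stood at 2532 and 3289 in qHF-SC, 1512 and 2327 in aHF-SC, and 1355 and 1856 in HF-TAC. The qHF-SC arrays lay above all others, and those of aHF-SC and HF-TAC overlapped. Its log2 difference between HF-TAC and qHF-SC was -0.86 ± 0.27 SE and missed the threshold by the smallest margin (limma adjusted p = 0.0502); it passed in 9 of 15 other settings, where the adjusted p ran from 0.0111 to 0.245. The differences of -0.62 ± 0.27 between aHF-SC and qHF-SC (adjusted p = 0.247) and -0.24 ± 0.27 between HF-TAC and aHF-SC (adjusted p = 0.656) did not pass.

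Id3 stood at 3214 and 3109.7 in qHF-SC, 2239 and 3666 in aHF-SC, and 1843 and 2626 in HF-TAC. The aHF-SC arrays spanned those of qHF-SC, and no neighbours in the order of group means differed beyond their spread. Its differences were -0.14, -0.38 and -0.52 on the log2 scale (limma adjusted p = 0.853, 0.442 and 0.219 for aHF-SC against qHF-SC, HF-TAC against aHF-SC and HF-TAC against qHF-SC). The 95% interval of the last ran from -1.16 to 0.11, which leaves room for a fall as large as that of Id1. Id1 and Id3 are each measured by 1 probe set.

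**Figure D2:**
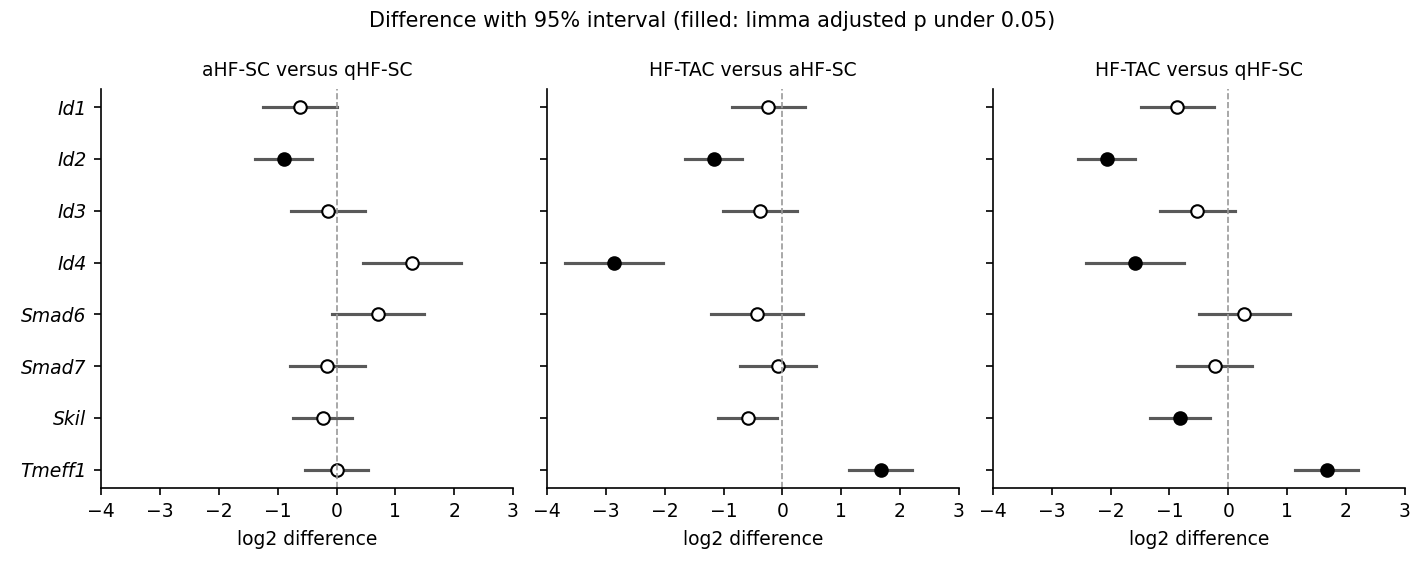
Log2 difference of each gene in the 3 comparisons with its 95% interval from the limma fit; filled points have an adjusted p under 0.05. Id2 is below 0 and filled in all 3 panels, Id4 crosses from above 0 (1.28) to far below (-2.86), and Tmeff1 lies at 0.00 between the stem cell groups and at 1.67 in both HF-TAC panels.

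The inhibitory Smad genes showed no difference past the threshold. Smad6, the inhibitor that acts mostly on BMP receptors, stood at 135 and 112 in qHF-SC, 148 and 271 in aHF-SC, and 117 and 189 in HF-TAC. The aHF-SC arrays lay above those of qHF-SC, by 0.70 ± 0.33 SE on the log2 scale (limma adjusted p = 0.297, 95% interval -0.07 to 1.48), and those of HF-TAC overlapped both. Smad7, which acts on BMP and TGF-beta receptors alike, stood at 275 and 269.9 in qHF-SC, 189.7 and 314 in aHF-SC, and 194 and 277 in HF-TAC. All groups overlapped except on its dimmer second probe set, where both HF-TAC arrays (58.4 and 78.2) lay just under those of qHF-SC (89.2 and 78.5). Its differences were -0.16, -0.07 and -0.23 (adjusted p = 0.833, 0.914 and 0.623), and the 95% intervals lay between -0.87 and 0.56. For Smad6 and Smad7 the gap between the aHF-SC replicates was larger than any gap between group means.

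Skil was lower in matrix cells than in quiescent stem cells. Its intensity was 543 and 409 in qHF-SC, 469 and 343 in aHF-SC, and 276 and 258 in HF-TAC. Both stem cell groups overlapped, and both HF-TAC arrays lay below them. It was 1.77-fold lower in HF-TAC than in qHF-SC (-0.82 ± 0.21 SE, limma adjusted p = 0.0273), and its difference of -0.59 ± 0.21 from aHF-SC did not pass (adjusted p = 0.112). The Skil call was lost with replicate 1 of qHF-SC dropped (0.157 for the limma adjusted p), with replicate 1 (0.0672) or 2 (0.104) of HF-TAC dropped, and with the mean of both its probe sets (-0.27, adjusted p = 0.344). The second Skil probe set, at 23.5 to 39.7 on all arrays, lay near the array median and had its highest value in HF-TAC.

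Tmeff1 was the only one of the 8 that was higher in matrix cells past the threshold. It was dim in both stem cell groups, at 40.2 and 32.3 in qHF-SC and 35.4 and 36.8 in aHF-SC, and reached 92.4 and 142 in HF-TAC. The stem cell groups overlapped, with a log2 difference of 0.00 ± 0.23 SE and a 95% interval from -0.54 to 0.54. HF-TAC lay 3.18-fold above aHF-SC (1.67 ± 0.23, limma adjusted p = 0.00329) and 3.18-fold above qHF-SC (1.67 ± 0.23, adjusted p = 0.00189). Both calls held in all 16 other settings, the smallest log2 differences being 1.33 and 1.32. The second Tmeff1 probe set lay below or at the array median in every group (means of 12.1, 9.90 and 23.4). It was also higher in HF-TAC, by 1.25 against aHF-SC and 0.98 against qHF-SC on the log2 scale. Both passed (limma adjusted p over all probe sets of 0.0112 and 0.0188), at a level where the size of a fold is uncertain.

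**Figure D3:**
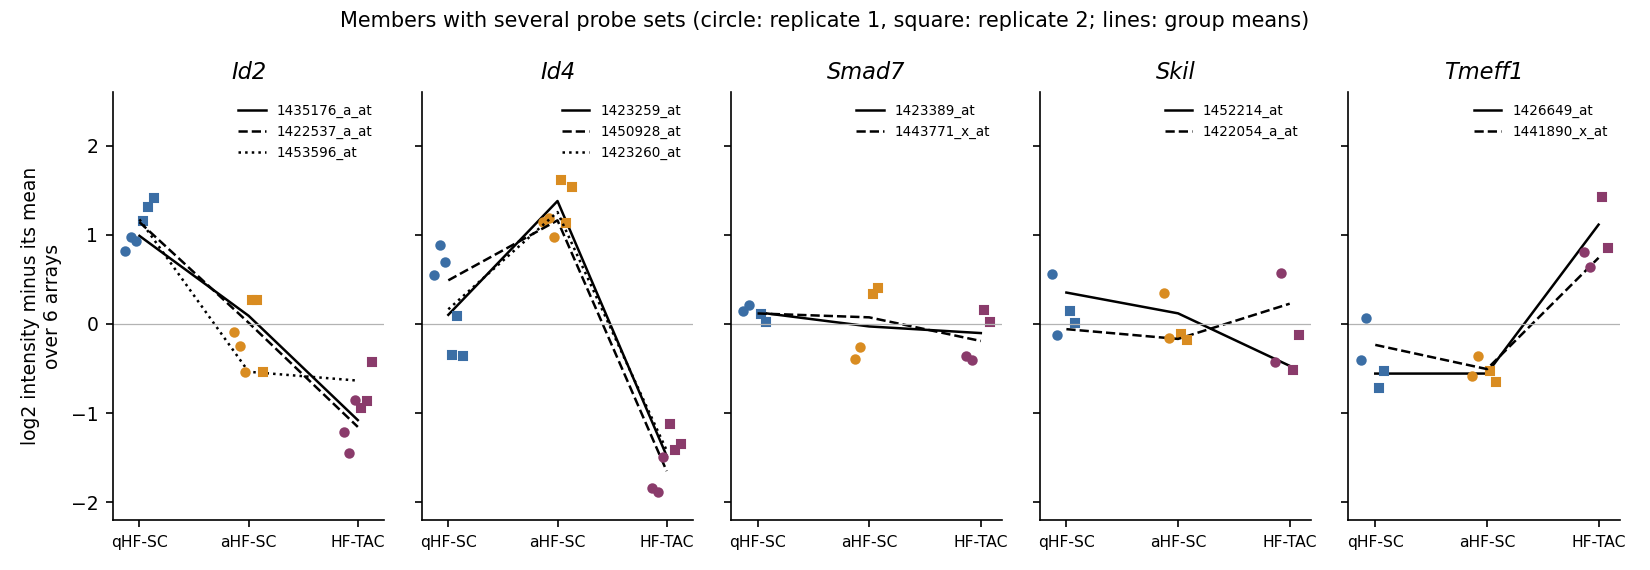
Log2 intensity of every probe set of the 5 genes that have several, each centred on its own mean over 6 arrays, by cell group; lines join group means, circles are replicate 1 and squares replicate 2. The 3 Id4 lines run together, the dotted Id2 line is flat from aHF-SC to HF-TAC, and the 2 Skil lines part in HF-TAC.

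Counted over the 8 genes, 0 rose and 1 fell (Id2) from qHF-SC to aHF-SC, where limma called 6.28% of all genes (3.07% higher and 3.21% lower). At an unadjusted p under 0.05 the number was 2 of 8. Between aHF-SC and HF-TAC 1 rose (Tmeff1) and 2 fell (Id2 and Id4), beside 17.5% of all genes (8.97% higher and 8.57% lower). Between qHF-SC and HF-TAC 1 rose (Tmeff1) and 3 fell (Id2, Id4 and Skil), beside 26.3% (13.4% higher and 12.9% lower). The median log2 difference of the 8 was -0.15, -0.41 and -0.67 in these comparisons, where that of all genes was 0.00, -0.01 and -0.01. The groups stood apart without overlap for 4, 4 and 6 of the 8 genes, beside 50.8%, 54.3% and 61.2% of all genes. Over the 15 probe sets, 3 were called between aHF-SC and qHF-SC (5.02% of all probe sets), 7 between HF-TAC and aHF-SC (11.5%) and 9 between HF-TAC and qHF-SC (20.1%). Those called were all of Id2 in the first comparison, of Id2, Id4 and Tmeff1 in the second, and of these and Skil in the last. Probe sets of the same gene are repeat measures, so these counts cannot be read against the share of all probe sets. The comparisons share groups and are not independent of each other. All 8 genes reached an intensity of 50 on at least 2 arrays, Tmeff1 in HF-TAC alone, as did 13 of the 15 probe sets.

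The DNA before the transcription start was available from RefSeq (GRCm38.p6) for 5 of the 8 genes. Of these, Id2 and Id4, lower in HF-TAC, and Tmeff1, higher there, are shown first, followed by Id3, which did not pass. Skil, which also passed, was not among those available. Each sequence is given 5′ to 3′ on the strand of the gene and ends just before the RefSeq span of the gene. Capitals mark GGCGCC, a sequence bound by BMP Smads, and CAGAC (or its complement GTCTG), the core of the Smad binding element. The windows are chr12:25096093-25096342 on the minus strand for Id2, chr13:48260866-48261115 on the plus strand for Id4, chr4:48584924-48585070 on the plus strand for Tmeff1 and chr4:136143572-136143821 on the plus strand for Id3.
Id2: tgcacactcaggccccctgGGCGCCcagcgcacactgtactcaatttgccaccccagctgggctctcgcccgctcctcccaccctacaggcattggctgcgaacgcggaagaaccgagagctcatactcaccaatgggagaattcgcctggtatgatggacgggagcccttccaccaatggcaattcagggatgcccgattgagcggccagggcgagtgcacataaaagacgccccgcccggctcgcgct
Id4: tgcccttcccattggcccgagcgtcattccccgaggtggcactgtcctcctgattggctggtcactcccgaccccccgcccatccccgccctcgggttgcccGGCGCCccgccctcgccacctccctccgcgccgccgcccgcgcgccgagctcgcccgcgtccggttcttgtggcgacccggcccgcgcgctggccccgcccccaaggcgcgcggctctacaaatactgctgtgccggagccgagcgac
Tmeff1: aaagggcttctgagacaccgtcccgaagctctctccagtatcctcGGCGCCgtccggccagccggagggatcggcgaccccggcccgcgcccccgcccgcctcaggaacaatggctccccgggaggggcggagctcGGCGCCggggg
Id3: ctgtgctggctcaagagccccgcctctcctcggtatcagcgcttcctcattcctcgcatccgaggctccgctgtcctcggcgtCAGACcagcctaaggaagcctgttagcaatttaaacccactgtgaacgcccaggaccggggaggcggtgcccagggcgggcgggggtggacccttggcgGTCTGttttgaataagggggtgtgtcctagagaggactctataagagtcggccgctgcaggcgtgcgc

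Searched on both strands in the table's windows of 300 bases, from 250 before the listed start to 50 after it, GGCGCC was found once in Id2 (-231 to -226 from the start, counted as 0), once in Id4 (-148 to -143) and at 2 places in Tmeff1 (-205 to -200 and -114 to -109). It was absent from the windows of Id3 and Smad6, and 11.9% of all 32851 windows held it. Positions count from the listed start, which for Tmeff1 lies 103 bases past the end of the printed sequence. For Smad6 the listed start lies 26 bases inside the RefSeq span, and for Id2, Id3 and Id4 at its edge. CAGAC was found at 2 places in Id3 (-167 to -163 and -68 to -64) and in none of the other 4, where 49.6% of all windows held it. The palindromic Smad site GTCTAGAC, which includes the letters GTCT but neither of the motifs above, was found in Smad6 alone of the 5 and in 0.213% of all windows. It spans the listed start of Smad6 (-4 to 3) and lies inside the RefSeq span of the gene, at chr9:64022045-64022074 on the minus strand with its flanks; capitals mark the palindrome.
Smad6: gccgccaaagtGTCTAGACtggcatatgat

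The E-box CANNTG, the sequence bound by the E proteins that Id proteins sequester, was found once each in the Id2 and Smad6 windows and in 72.3% of all windows. These matches describe letters in short windows and were chosen as known Smad and E-protein sequences, with the levels of the genes in view. Their relation to the levels was not tested.

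Genes around these 8 in the pathway were read from 5 lists. Among 18 receptors and signal Smads, 0 passed between aHF-SC and qHF-SC, where limma called 6.28% of all genes. In HF-TAC 5 fell and 0 rose against aHF-SC (17.5% of all genes called), and likewise against qHF-SC (26.3%). The median log2 differences of the list were -0.08, -0.21 and -0.35. The TGF-beta type II receptor gene Tgfbr2 had means of 443 ± 67.4, 223 ± 55.8 and 117 ± 28.1 (SD, n = 2) in the order qHF-SC, aHF-SC, HF-TAC, and was 3.81-fold lower in HF-TAC than in qHF-SC (limma adjusted p = 0.00135). Averaged over its probe sets, this Tgfbr2 difference shrank from -1.93 to -0.66 on the log2 scale (adjusted p = 0.0278). The activin receptor gene Acvr2a was 2.61-fold lower in HF-TAC than in qHF-SC (adjusted p = 0.00308), with 694 ± 89.7 in qHF-SC and 265 ± 8.94 in HF-TAC (SD, n = 2), a call that ended with the mean of its probe sets (-0.44, adjusted p = 0.214). Tgfbr3, a coreceptor gene, was 2.07-fold lower (adjusted p = 0.0362). Acvrl1, a type I receptor gene, was dim, with means of 52.4, 46.5 and 13.7, the last below the array median. Its size of change therefore depends on how low values are treated: with 16 added to each intensity Acvrl1 was lower in HF-TAC by -1.17 against qHF-SC and -1.07 against aHF-SC (adjusted p = 0.0229 and 0.0418), and without suffixed probe sets by -0.90 against qHF-SC.

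Against aHF-SC the falls in HF-TAC were 2.24-fold for Tgfbr3, 1.90-fold for Tgfbr2 and 1.71-fold for Acvr2a (limma adjusted p = 0.0351, 0.0428 and 0.0463). These 3 calls ended when only the compared groups entered the fit (adjusted p = 0.0635, 0.0646 and 0.0702) and when probe sets were averaged (-0.64, -0.34 and -0.43, with adjusted p = 0.084, 0.244 and 0.273). With 16 added to each intensity all 3 ended as well (limma adjusted p = 0.0724, 0.0807 and 0.0718). The replicate block ended the call of Tgfbr2 (0.07) and array weights that of Acvr2a (0.0563). They also ended without aHF-SC replicate 1 for Tgfbr3 (0.138) and Acvr2a (0.196), without aHF-SC replicate 2 for Tgfbr3 (0.114) and Tgfbr2 (0.215), without HF-TAC replicate 1 for Acvr2a (0.137) and without HF-TAC replicate 2 for Tgfbr3 (0.0708), Tgfbr2 (0.188) and Acvr2a (0.122). The Tgfbr3 call against qHF-SC ended without qHF-SC replicate 1 or 2 (log2 difference -1.09 or -1.01) and without HF-TAC replicate 2 (-0.56). It also ended in the fit of both groups alone (limma adjusted p = 0.0569), with averaged probe sets (0.0678) and with 16 added to each intensity (0.0727). Smad1, a BMP signal Smad that acts on Id genes, stood at 1573, 1561 and 973 in the 3 groups and was lower in HF-TAC, 1.61-fold against either stem cell group (adjusted p = 0.0395 against aHF-SC and 0.0281 against qHF-SC). The Smad1 call against aHF-SC was lost with array weights (limma adjusted p = 0.0501) and without any 1 of the compared arrays. Its log2 difference was then -0.72 and -0.65 without aHF-SC replicates 1 and 2, and -0.79 and -0.58 without those of HF-TAC. The Smad1 call against qHF-SC was lost without qHF-SC replicate 1 (-0.50) or HF-TAC replicate 2 (-0.58). It was also lost with averaged probe sets (limma adjusted p = 0.0621) and without suffixed ones (-0.48, adjusted p = 0.091). Smad5, another BMP signal Smad, at 549, 529 and 433, and the BMP receptor gene Bmpr1a, at 802, 1006 and 850, did not pass in any comparison.

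Of 21 ligands and antagonists, 1 rose and 3 fell from qHF-SC to aHF-SC, beside 6.28% of all genes called. From aHF-SC to HF-TAC 3 rose and 8 fell (17.5% of all genes called), and between qHF-SC and HF-TAC 3 rose and 7 fell (26.3%). Grem1, a secreted BMP antagonist, fell from 3242 ± 21.7 over 478 ± 12.3 to 37.1 ± 3.13 (SD, n = 2; 6.79-fold and 12.9-fold, limma adjusted p = 0.000606 and 0.000111). The BMP ligand gene Bmp4 was near or below the array median in both stem cell groups, at 27.6 and 20.1, and rose to 241 ± 143 in HF-TAC (SD, n = 2; adjusted p = 0.00156 against aHF-SC). With 16 added to each intensity the Bmp4 difference from aHF-SC was 2.71 on the log2 scale (adjusted p = 0.0158), and without HF-TAC replicate 1 or 2 it was 4.09 or 2.80 with none added. Bambi, a pseudoreceptor that blocks BMP and TGF-beta signals, was 4.55-fold higher in HF-TAC than in qHF-SC (adjusted p = 0.000437), at 214 ± 25.2 and 979 ± 194 (SD, n = 2). Gdf10, a ligand of the TGF-beta family, was 77.2-fold lower in HF-TAC than in aHF-SC (adjusted p = 0.0022), from 2765 ± 1232 to 37.7 (means, n = 2; SD for aHF-SC), a log2 difference of -6.27 that was -5.60 and -6.94 without HF-TAC replicates 1 and 2. The activin subunit gene Inhbb was 5.86-fold lower in HF-TAC than in aHF-SC (limma adjusted p = 0.0221). That call ended with 16 added to each intensity (0.0667). It also ended without aHF-SC replicate 1 (log2 difference -2.77) or 2 (-2.33) and without HF-TAC replicate 2 (-2.13). Averaged over its probe sets Inhbb differed by -1.60.

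Between aHF-SC and qHF-SC, Bmp6 rose 3.86-fold (limma adjusted p = 0.00763; 0.0607 without qHF-SC replicate 2). The activin antagonist gene Fst fell 2.34-fold (adjusted p = 0.0358, and 0.0785 with 16 added to each intensity) and Bmp7 1.84-fold (adjusted p = 0.026). Both of these calls ended with any of their 4 arrays left out: for Fst at 0.156 and 0.154 without qHF-SC replicates 1 and 2 and at 0.0831 and 0.16 without aHF-SC replicates 1 and 2, and for Bmp7 at 0.125, 0.105, 0.119 and 0.0949 in that order. Averaged over its probe sets, Bmp7 differed by -0.35 on the log2 scale (adjusted p = 0.341).

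**Figure D4:**
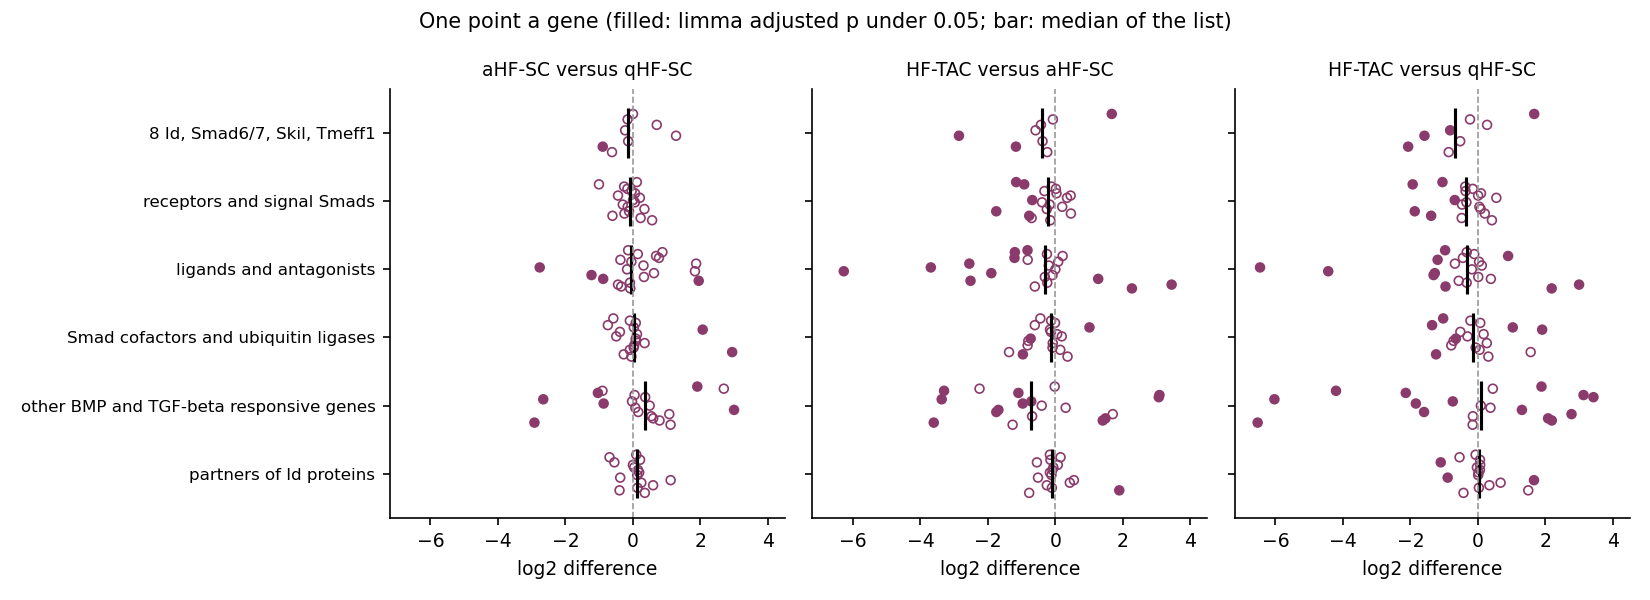
Log2 difference of the 8 genes (top) and of the measured genes of 5 pathway lists in the 3 comparisons, 1 point a gene; filled points have a limma adjusted p under 0.05 and bars are list medians. The medians of the list of Id partners lie close to 0 (0.13, -0.11 and 0.02). Single partners lie further out, such as Bhlhe40 between HF-TAC and aHF-SC (1.89) and Hes1 (1.66) and Tcf12 (-1.10) between HF-TAC and qHF-SC. Other responsive genes spread widely on both sides.

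Other genes known to respond to BMP or TGF-beta moved in both directions. Of 19, 2 rose and 4 fell from qHF-SC to aHF-SC, beside 6.28% of all genes called. From aHF-SC to HF-TAC 4 rose and 8 fell (17.5% of all genes called), and between qHF-SC and HF-TAC 7 rose and 7 fell (26.3%). The homeobox genes Msx1 and Msx2, BMP targets of the matrix, were 10.7-fold higher than in qHF-SC (Msx1, limma adjusted p = 0.000213) and 8.47-fold higher than in aHF-SC (Msx2, adjusted p = 0.00147), at 703 ± 169 and 829 ± 413 in HF-TAC (SD, n = 2). Other probe sets gave smaller rises that also passed: averaged, Msx1 differed by 2.33 and Msx2 by 1.64 on the log2 scale, against 3.42 and 3.08 on the brightest probe sets, and without suffixed ones Msx1 differed by 1.24. With the Id genes they share a place among BMP targets, while Id2 and Id4 fell where they rose. The matrix protein genes Ccn2 and Tgfbi fell 92.1-fold and 18.4-fold between qHF-SC and HF-TAC (adjusted p = 3.51e-05 and 0.000297), and 12.2-fold and 9.84-fold between aHF-SC and HF-TAC (adjusted p = 0.000393 and 0.00152). Without HF-TAC replicate 1 or 2 the Tgfbi difference from aHF-SC was -3.93 or -2.67 on the log2 scale, and that from qHF-SC -4.83 or -3.57. Ltbp2, at 811 and 126 in the stem cell groups, lay below the array median in HF-TAC (12.4); with 16 added it was lower there by -4.83 against qHF-SC and -2.32 against aHF-SC (adjusted p = 0.00112 and 0.00761). Between aHF-SC and qHF-SC, Ccn2 fell 7.57-fold and Ltbp2 6.31-fold, while the fibronectin gene Fn1 rose 7.97-fold and Tsc22d1 3.75-fold (adjusted p = 0.00319, 0.00538, 0.00573 and 0.0118). Averaged over probe sets, Fn1 differed by 1.54 and Tsc22d1 by 1.28 on the log2 scale. The Fn1 call ended without qHF-SC replicate 2 (0.0559), and the Tsc22d1 call without aHF-SC replicate 1 (0.0653) or 2 (0.0524).

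Of 18 Smad cofactors and ubiquitin ligases, 2 rose and 0 fell from qHF-SC to aHF-SC, beside 6.28% of all genes called. From aHF-SC to HF-TAC 1 rose and 2 fell (17.5% of all genes called), and between qHF-SC and HF-TAC 2 rose and 4 fell (26.3%). Tgif2, a Smad corepressor gene, rose from 53.2 ± 20.2 in qHF-SC to 215 ± 8.64 in aHF-SC (SD, n = 2; 4.19-fold, limma adjusted p = 0.00962; 0.0501 without aHF-SC replicate 1) and stayed higher in HF-TAC (3.74-fold over qHF-SC, adjusted p = 0.00196). Pmepa1, a TGF-beta feedback inhibitor gene, rose 7.67-fold from qHF-SC to aHF-SC (adjusted p = 0.0428), with its qHF-SC arrays far apart (86.7 ± 82.5, SD, n = 2). That call ended with 16 added to each intensity (0.0934), in the fit of both groups alone (0.0521) and without aHF-SC replicate 1 or 2. The log2 difference of 2.94 became 2.75 or 3.12 without aHF-SC replicate 1 or 2. It became 4.11 or 1.76 without qHF-SC replicate 1 or 2, and 1.91 with averaged probe sets. The ligase gene Nedd4l was 2.36-fold lower in HF-TAC than in qHF-SC (log2 difference -1.24, and -2.17 without suffixed probe sets) and 1.95-fold lower than in aHF-SC (adjusted p = 0.00113 and 0.00537), and Wwp1 2.56-fold lower than in qHF-SC (adjusted p = 0.00265; 0.101 with the mean of its probe sets). Smurf1, a ligase that Smad7 recruits to receptors, was 1.66-fold lower in HF-TAC than in aHF-SC (limma adjusted p = 0.0379). The Smurf1 call held in 8 of 16 other settings. It ended with averaged probe sets (-0.50, adjusted p = 0.0967), with 16 added to each intensity (0.0515) and in the fit of both groups alone (0.0647). It also ended without aHF-SC replicate 2 (-0.51) and without HF-TAC replicate 1 (-0.69) or 2 (-0.78).

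The deubiquitinase gene Usp15 was 2.01-fold higher in HF-TAC than in aHF-SC and 2.05-fold higher than in qHF-SC on its brightest probe set (limma adjusted p = 0.0156 and 0.00936). Averaged over its probe sets, Usp15 differed by 0.23 and -0.03 on the log2 scale, and neither passed. The first call also ended without aHF-SC replicate 1 (0.0677) or 2 (0.0757) and without HF-TAC replicate 2 (0.0531), and the second without qHF-SC replicate 2 (0.0638).

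Partners of Id proteins were read as the genes through which Id proteins act. Of 16 E proteins, other basic helix-loop-helix factors and further known partners, 0 passed between aHF-SC and qHF-SC, 1 rose from aHF-SC to HF-TAC, and 1 rose and 2 fell between qHF-SC and HF-TAC, where 6.28%, 17.5% and 26.3% of all genes passed. Of the 16, Myod1, Neurod1, Lyl1, Tal1, Twist1 and Pax5 lay below the array median in every group. Of the E protein genes, Tcf3 stood at 423, 498 and 444 and Tcf4 at 373, 231 and 256 in the 3 groups, and neither passed. The remaining one, Tcf12, was 2.14-fold lower in HF-TAC than in qHF-SC (limma adjusted p = 0.00232), at 2742 ± 91.3 and 1285 ± 174 (SD, n = 2). That call ended when suffixed probe sets were left out (-0.25, limma adjusted p = 0.375). The repressor gene Hes1 was 3.17-fold higher and Hes6 1.86-fold lower (adjusted p = 0.00474 and 0.00781; Hes6 0.0576 without qHF-SC replicate 2), and Bhlhe40 was 3.71-fold higher in HF-TAC than in aHF-SC (adjusted p = 0.0342; 0.169 without aHF-SC replicate 2, 0.128 without HF-TAC replicate 1 and 0.053 in the fit of both groups alone).

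Markers of other cells were read because Id genes are strongly expressed in vessels and mesenchyme. The 7 endothelial markers summed to an intensity of 118 to 122 in qHF-SC, 125 to 126 in aHF-SC and 93.4 to 97.5 in HF-TAC; Pecam1, Emcn and Cldn5 lay below the array median in every group. The 11 dermal papilla and fibroblast markers summed to 571 to 665, 455 to 807 and 3894 to 6429 in the same order, a sum carried in HF-TAC by Dcn, the 1 marker of the list that rose. Lum, Pdgfra, Sox2, Corin, Alx4 and Rspo3 lay below the array median in every group. The collagen gene Col1a2 stood at 330, 153 and 109 and was lower in HF-TAC than in qHF-SC (limma adjusted p = 0.0194), and Col3a1 (48.8 and 55.3 on the qHF-SC arrays, with means of 198 and 104 in the other groups), Col1a1 (46.2, 66.5 and 41.5) and Vim (109, 83.6 and 57.8) did not pass. The 7 immune markers summed to 161 to 236 over all arrays, and 0 of them passed in any comparison.

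The 7 melanocyte markers summed to 1834 to 2009 in qHF-SC, 485 to 556 in aHF-SC and 562 to 741 in HF-TAC. Mitf carried the qHF-SC sum and fell, while 3 of the 7 rose between qHF-SC and HF-TAC. These were Dct (96.0, 198 and 345 in the 3 groups, 3.69-fold, limma adjusted p = 0.00171), Mlana (17.9, 25.7 and 57.9, 2.97-fold, adjusted p = 0.0174) and Tyr (7.39, 11.5 and 15.9, below the array median, adjusted p = 0.019). The part of melanocyte and dermal RNA in the differences of the 8 genes was not tested.

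Differentiated keratinocyte markers summed to 26421 to 26670 in qHF-SC, 12616 to 14980 in aHF-SC and 21399 to 33062 in HF-TAC, where 3 of 7 fell between qHF-SC and aHF-SC and 4 of 7 rose between aHF-SC and HF-TAC. Of 12 genes of the response to tissue dissociation, 8 were higher in aHF-SC than in qHF-SC, beside 3.07% of all genes. Against qHF-SC, 9 were higher in HF-TAC, beside 13.4% of all genes, and 0 passed between aHF-SC and HF-TAC. Their summed level was 29089 to 35460.5 in qHF-SC, 72587 to 101544 in aHF-SC and 53653 to 62737 in HF-TAC. Dissociation genes thus rose where Id2 fell between qHF-SC and aHF-SC, and where Id2, Id4 and Skil fell and Tmeff1 rose between qHF-SC and HF-TAC. Between aHF-SC and HF-TAC, where Id2 and Id4 fell and Tmeff1 rose, their median log2 difference was -0.62 and none passed. Keratinocyte markers fell along with Id2 between qHF-SC and aHF-SC. Between aHF-SC and HF-TAC they rose, as Tmeff1 did, while Id2 and Id4 fell. Between qHF-SC and HF-TAC 1 of the 7 rose and 6 did not pass. The part of both marker lists in the differences of the 8 genes was not tested.

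Genes with the most similar course were sought for the 3 of the 8 whose group means spanned at least 1 on the log2 scale, as the smallest root mean square distance between centred log2 values over the 6 arrays. For Id2 these were Cables1, Jade2 and Txnrd2, at distances of 0.04, 0.08 and 0.11. Cables1 stood at 921, 504 and 219 in the 3 groups. For Id4 they were Armh4, Lrrc4 and Lpar3, at 0.18, 0.19 and 0.20, and Lpar3 stood at 219, 411 and 60.1. For Tmeff1 they were Pkp4, Csrp2 and Lyar, at 0.08, 0.11 and 0.13, and Pkp4 stood at 165, 173 and 543.

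Within groups, the replicate arrays differed in a similar way for most of the 8. On aHF-SC replicate 2, 6 of the 6 Id and inhibitory Smad genes were higher than on replicate 1, by 0.36 (Id2) to 0.87 (Smad6) on the log2 scale. In HF-TAC 6 of 6 were also higher on replicate 2, by 0.27 (Id2) to 0.72 (Id4), and in qHF-SC 2 of 6. Over all genes, 52.5%, 53.3% and 50% were higher on replicate 2 of aHF-SC, HF-TAC and qHF-SC. Gaps at least as wide as that of Smad6 in aHF-SC were found for 2.11% of genes, and as wide as that of Id4 in qHF-SC (-0.90) for 1.48%. The summed dissociation genes were higher on replicate 2 in aHF-SC (101544 against 72587) and lower on it in HF-TAC (53653 against 62737). Of the 11 dermal markers, Col3a1 (94.1 and 302 in aHF-SC, 41.8 and 166 in HF-TAC) and Vim (49.6 and 118, 48.8 and 66.9) were also higher on replicate 2 of both groups. Col1a1 was lower on it in aHF-SC (69.7 and 63.3) and higher in HF-TAC (36.7 and 46.2). On replicate 2 of both groups the list had a higher sum but a lower median (14.8 and 14.1 in aHF-SC, 18.8 and 16.6 in HF-TAC). The part of dermal markers in the gaps was not tested. The aHF-SC gap for Id1, Id3, Smad6 and Smad7 is wider than the difference between the means of aHF-SC and HF-TAC.

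**Figure D5:**
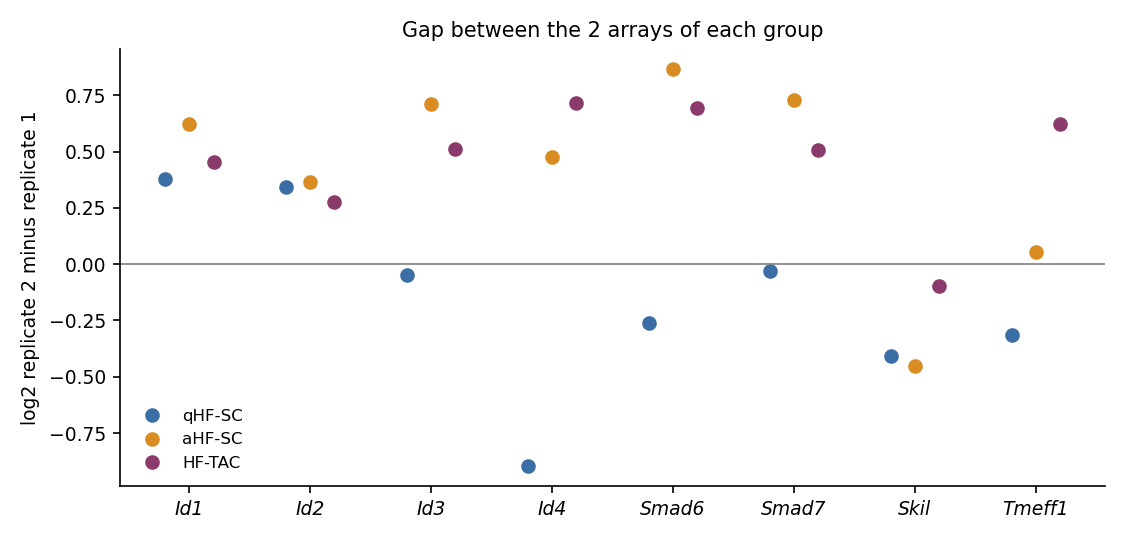
Log2 intensity on replicate 2 minus replicate 1 for each of the 8 genes, coloured by cell group; the line marks no gap. In aHF-SC and HF-TAC all Id and inhibitory Smad genes lie above 0, while Id4 in qHF-SC lies at -0.90 and Skil lies below 0 in all 3 groups.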

How the data were processed

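RNA from 6 sorted samples, 3 groups of 2, was measured on Affymetrix mouse arrays from 2 µg of total RNA each, per the labels. The deposited values are probe set intensities on a linear scale; RMA is named in the submitters' processing notes without version or role, and neither the probe set definition nor the step back from log2 is stated there. RMA-type summaries compress large folds and dim signals.

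Of 45101 probe sets, 64 controls were left out; 34945 carried 1 gene symbol, 932 several and 9160 none. The annotation dates from before the RefSeq table; 0 symbols had to be updated. Each gene was tested through the probe set with the highest mean among those naming it alone, with no filter. Group means of log2 intensity were fitted over all 6 arrays with limma 3.58.1 (R 4.3.3; 3 residual and 4.25 prior degrees of freedom), two-sided, with Benjamini-Hochberg adjustment over 18193 genes or 45037 probe sets within a comparison and a threshold of 0.05. Tested on simulated data for HF-TAC against aHF-SC (18193 genes), limma called 95% of the 4-fold and 25% of the 2-fold changes put in. Far fewer genes were changed in that simulation than the 17.5% called in the data. Since the adjustment depends on the share of changed genes, these percentages do not give the power here. Precision is limited by 2 arrays a group.

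Named genes are the 8, in each pathway list up to 4 called genes that changed most, and the 3 most similar genes of each member that spans at least 1 on the log2 scale; Smad1, Smad5, Bmpr1a, Tcf3, Tcf4 and the marker genes and dim genes named were chosen after their values were seen. The members and lists were chosen with earlier results of these data known. Alternatives were other probe set choices, scalings, low-value handling, fits and leaving out arrays.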

Additional observations from a re-analysis of the deposited data

How the results depend on the processing

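Over 11 kinds of alternative (probe set choice, quantile or 75th-percentile scaling, 16 added to intensities, a filter at an intensity of 50 on 2 arrays, replicate block, array weights, a variance trend, fits of 2 groups, and each array left out), Tmeff1 in both HF-TAC comparisons, Id4 between HF-TAC and aHF-SC and Id2 between HF-TAC and qHF-SC passed throughout. Of the 8 genes, 1 passed between aHF-SC and qHF-SC: 2 did with scaling to the 75th percentile and 0 with 16 added, and 1 probe set passed with 16 added in place of 3. Leaving out single arrays gave 0 to 1, 2 to 3 and 2 to 5 of the 8 genes in aHF-SC against qHF-SC, HF-TAC against aHF-SC and HF-TAC against qHF-SC. It gave 0 to 2, 4 to 7 and 6 to 10 of the 15 probe sets, and 6 to 13, 22 to 29 and 30 to 39 genes of the 5 pathway lists (12, 32 and 38 with all arrays). The lowest gene counts came without any of the 4 compared arrays (first comparison, 0), without aHF-SC replicate 2 (second, 2) and without qHF-SC replicate 1 or HF-TAC replicate 1 (last, 2). Id1 has no value without suffixed probe sets, since its only one carries a suffix. A left-out array leaves a lone sample that is assumed to vary like the others. Usp15 between HF-TAC and qHF-SC had a log2 difference of 1.03, which turned to -0.031 when its probe sets were averaged and to -0.11 when suffixed ones were dropped; the cause was not tested. Between aHF-SC and qHF-SC 1142 of all genes were called, and 548 with 16 added; single arrays left out gave 124 to 1354, 1643 to 2786 and 2893 to 4588 in the same order, where all arrays gave 1142, 3191 and 4790. Deviations of same-numbered arrays correlated at 0.06, -0.13 and 0.08 between groups. Such values over all genes cannot settle whether same-numbered arrays share animals or a sort, which the labels do not say. A replicate block gave 1, 3 and 5 of the 8 genes past the threshold, and 3, 7 and 10 probe sets. The added gene was Id1 between HF-TAC and qHF-SC (limma adjusted p = 0.0111). Dim signals (Tmeff1 in stem cells, the second Skil probe set) limit what folds can show.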

Other observations

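Among markers read as a check on other cells, 2 genes stood apart from the rest of their list, and both were chosen after their values were seen. Dcn, which encodes the proteoglycan decorin, rose from 22.7 (qHF-SC) and 70.0 (aHF-SC) to 4786 (HF-TAC), while the dermal genes Lum and Pdgfra stayed at 9.75 and 13.3 in HF-TAC. Its log2 difference between HF-TAC and aHF-SC was 6.10. Mitf, a transcription factor gene named for melanocytes, fell from 1691 (qHF-SC) to 175 (aHF-SC) and 85.9 (HF-TAC; log2 difference -3.27 between aHF-SC and qHF-SC). The pigment cell gene Dct ran the other way, at 96.0, 198 and 345 in the 3 groups, as did Mlana at 17.9, 25.7 and 57.9, and Sox10 did not pass in any comparison (52.1, 46.3 and 47.7).

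The endothelial list held 1 gene with a course of its own: Tek, a receptor tyrosine kinase gene, at 8.05, 28.1 and 8.61 in the 3 groups, rose by 1.79 on the log2 scale in aHF-SC (limma adjusted p = 0.00504), a dim signal near the array median.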
